A study of Sus scrofa with 2 samples.

Results

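Glutamate receptor genes of pancreatic endocrine nuclei are described, namely GRIA2, GRIA3, GRIK1, GRIK2 and GRM5. They were taken by symbol, and all 5 were found among the 31908 genes of the matrices. Glutamate is the main excitatory transmitter of the brain and is also released by alpha cells together with glucagon. It opens ionotropic receptors, which are ion channels assembled from several subunits, and it activates metabotropic receptors, which signal through G proteins. In islets, AMPA and kainate receptors have been studied above all in alpha cells, and metabotropic receptors have been described on several endocrine cell types.

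GRIA2 and GRIA3 encode AMPA receptor subunits, and GRIA2 is the subunit whose edited form makes the channel nearly impermeable to calcium. GRIK1 and GRIK2 encode kainate receptor subunits. GRM5 encodes a metabotropic receptor that couples to Gq and phospholipase C beta. In the pig assembly Sscrofa11.1, RefSeq places GRIA2 (ENSSSCG00000024685) on chromosome 8 from 46078122 to 46247144 and GRIA3 (ENSSSCG00000012638) on chromosome X from 100827293 to 101109213. GRIK1 (ENSSSCG00000025119) lies on chromosome 13 from 192877707 to 193296954 and overlaps 2 annotated pseudogenes. GRIK2 (ENSSSCG00000004361) lies on chromosome 1 from 68052086 to 68680448, and GRM5 (ENSSSCG00000029865) lies on chromosome 9 from 21914422 to 22438200 and overlaps 3 annotated long noncoding RNAs. The genomic spans run from 169 kb for GRIA2 to 628 kb for GRIK2, so the levels of different genes are compared per 100 kb of span, and CPM compares classes and libraries within a gene. The methods do not state whether reads from introns were counted, and the scaling by span was not tested.

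Single-nucleus RNA sequencing tags each RNA molecule of a nucleus with a unique molecular identifier (UMI). One piece from the body of the pancreas was sequenced from 1 WT Bama pig and 1 PIGinH11 Bama pig. The PIGinH11 pig carried knocked-in GIPRdn, hIAPP and PNPLA3 I148M at the H11 locus, each under a promoter for beta cells or for liver, and the WT pig carried none of them. Both were 18 months old and had received control diet until 6 months of age and then HFHSD for 12 months, so neither library is from a pig kept on control diet throughout. With 1 pig per group the spread between pigs was not measured, so no difference between the pigs could be tested. All intervals given are exact 95% intervals and cover counting error only.

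The WT library held 13619 barcodes with a median of 3216 UMIs and the PIGinH11 library 14964 barcodes with a median of 1181.5, and 24980 nuclei were kept. Of all barcodes 60 occurred in both libraries, 47 of them among the kept nuclei. Clusters gave 66 and 90 alpha-like nuclei (WT and PIGinH11), 134 and 124 beta-like, 26 and 59 delta-like and 6 and 43 gamma-like nuclei. The hormones followed these names, with GCG at 4104 and 3092 CPM (UMIs per 1000000 UMIs of the class) in alpha-like nuclei, INS at 8335 and 5144 CPM in beta-like nuclei and SST at 2140 and 2282 CPM in delta-like nuclei. PPY, for pancreatic polypeptide, was at 6239 and 3403 CPM in gamma-like nuclei, with a UMI in 83.3% and 51.2% of them. INS was also at 292 and 144 CPM in alpha-like, 400 and 570 CPM in delta-like and 82.5 and 1214 CPM in gamma-like nuclei. Acinar-like nuclei had 229 and 98.6 CPM of INS. The part of beta-cell RNA in the levels of other classes was not tested. IAPP was at 0 UMIs in the beta-like nuclei of both libraries and MAFA in those of the WT library. No cluster matched the markers of epsilon cells or neurons. The neuron markers STMN2 and CHAT were at 0 UMIs in alpha-like and beta-like nuclei of both libraries, although the summed level of 8 neuron markers, some of which endocrine cells share, was 213 to 731 CPM there against 33.3 and 36.1 CPM in acinar-like nuclei. A further 47 and 252 endocrine-like nuclei stayed unnamed, of which 38 and 235 matched acinar markers best. None of the 5 receptor genes was used to form or name the clusters. RNA released from broken cells also enters droplets, so the level in acinar-like nuclei (8791 and 9142), the most numerous class, is given as the background.

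The 5 genes were far from evenly spread over the pancreas. Endocrine-like nuclei made up 2.35% and 4.33% of the nuclei but held 86.1% (84.9 to 87.3) and 87.1% (85.8 to 88.3) of the GRIA3 UMIs. They held 82.9% and 80.8% of the GRIK1 UMIs. For GRM5 the share was 80.9% (79.3 to 82.4) in WT but 50.7% (47.8 to 53.7) in PIGinH11. GRIK2 was less concentrated, at 31.9% and 36.5%. GRIA2 was the exception, with 1 of 83 and 8 of 128 UMIs in endocrine-like nuclei. Stellate-like nuclei, 1.65% and 1.86% of the nuclei, held 9 and 22 of the GRIA2 UMIs.

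**Figure D1:**
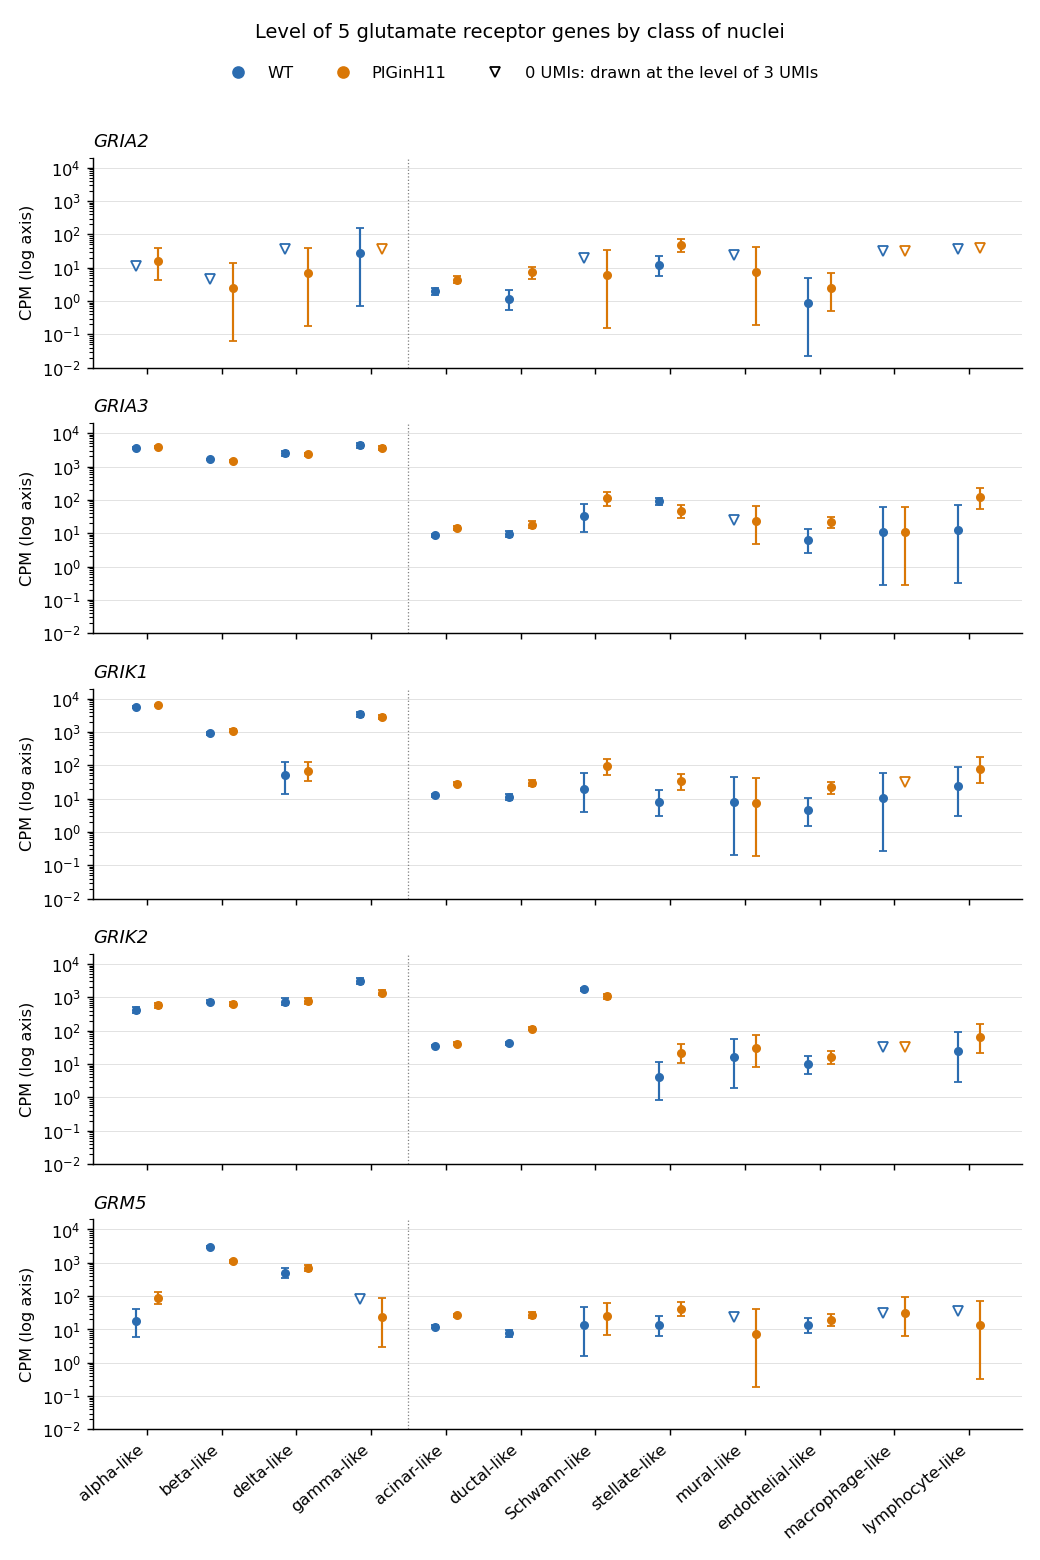
Level of each of the 5 genes in 12 classes of nuclei, in CPM on a log axis, in the WT library (blue) and the PIGinH11 library (orange). Points are single libraries, bars are exact 95% Poisson intervals, and open triangles mark classes with 0 UMIs at the level of 3 UMIs. GRIA3 is at 1450 CPM or more in all 4 endocrine-like classes, GRIK1 is near the background in delta-like nuclei, and GRM5 is highest in beta-like nuclei.

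GRIA3 was read in all endocrine-like classes. In alpha-like nuclei it reached 3684 CPM (3461 to 3919) in WT and 3926 CPM (3688 to 4176) in PIGinH11, from 1011 and 1012 UMIs. In beta-like nuclei it was at 1633 and 1450 CPM. In delta-like nuclei it was at 2465 and 2344 CPM, and in gamma-like nuclei, which make pancreatic polypeptide, at 4343 and 3619 CPM. Of the 6 gamma-like WT nuclei, 1 held 91 of 158 GRIA3 UMIs, and the level was 2758 CPM without it. Acinar-like nuclei had 8.53 and 14.1 CPM. The order was therefore alpha-like above delta-like above beta-like in both libraries, with intervals that did not overlap, while the gamma-like and alpha-like intervals overlapped in both with all nuclei counted. At least 1 GRIA3 UMI was found in 65 of 66 and 86 of 90 alpha-like nuclei, 130 of 134 and 109 of 124 beta-like nuclei and 26 of 26 and 55 of 59 delta-like nuclei. Of acinar-like nuclei, 2.65% and 2.30% had one. Median depths were 2876 and 1197 UMIs in acinar-like nuclei against 3474.5 and 2030.5 in alpha-like nuclei.

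GRIA2 was not seen above the background in endocrine-like nuclei. The WT library had 0 GRIA2 UMIs in 66 alpha-like, 134 beta-like and 26 delta-like nuclei, which by a floor of 3 counts allows shares of up to 4.55%, 2.24% and 11.5% of nuclei with a UMI at this depth. The PIGinH11 library had 4 UMIs in alpha-like nuclei, all in 1 nucleus, and 1 each in beta-like and delta-like nuclei. Acinar-like nuclei stood at 1.97 and 4.42 CPM. Outside the endocrine classes, stellate-like nuclei stood higher, at 12.2 and 48.2 CPM, from 9 and 22 UMIs. In beta-like nuclei the same floor was 4.74 CPM in WT, and the upper bound of the interval was 14.2 CPM in PIGinH11. Per 100 kb of span GRIA3 was at 579 and 514 CPM in beta-like nuclei and GRIA2 at 0 and 1.51 CPM.

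GRIK1 separated alpha-like and gamma-like nuclei from delta-like nuclei. It was at 5521 CPM (5247 to 5806) and 6239 CPM (5937 to 6551) in alpha-like nuclei, from 1515 and 1608 UMIs. Gamma-like nuclei followed with 3436 and 2741 CPM, and beta-like nuclei with 899 and 1091 CPM. Delta-like nuclei had only 4 and 10 UMIs, or 50.1 and 68.7 CPM, against a background of 12.5 and 28.1 CPM in acinar-like nuclei. Alpha-like nuclei thus stood 6.14 and 5.72 times above beta-like nuclei and 110 and 90.8 times above delta-like nuclei. Per 100 kb of span, GRIK1 and GRIA3 were alike in alpha-like nuclei, at 1317 and 1307 CPM in WT and 1488 and 1393 CPM in PIGinH11.

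GRIK2 varied least among alpha-like, beta-like and delta-like nuclei. It was at 415 and 578 CPM in alpha-like, 746 and 637 CPM in beta-like and 751 and 770 CPM in delta-like nuclei. Beta-like and delta-like nuclei did not differ beyond counting error, with log2 ratios of 0.01 (-0.40 to 0.40) and 0.27 (-0.06 to 0.60) for delta-like over beta-like nuclei. The gamma-like value of the WT library, 3106 CPM, came from 6 nuclei, 1 of which held 76 of the 113 UMIs. Without the nucleus with the most UMIs in each library, the gamma-like level was 1406 CPM in WT and 1215 CPM in PIGinH11. GRIK2 was also found outside the endocrine classes, in Schwann-like nuclei, at 1728 CPM (1526 to 1950) and 1077 CPM (923 to 1250). In acinar-like nuclei GRIK2 was at 35.7 and 41.2 CPM. Its 1124 and 643 UMIs there lay in 625 and 484 nuclei, and single nuclei held up to 13 and 15. How much of this level is released RNA was not tested.

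GRM5 was a gene of beta-like and delta-like nuclei. It was at 2992 CPM (2859 to 3130) in beta-like nuclei of the WT library, from 1893 UMIs, and at 1101 CPM (999 to 1210) in those of the PIGinH11 library, from 432 UMIs. Delta-like nuclei had 501 CPM (358 to 682) and 701 CPM (572 to 851). Alpha-like nuclei had 5 and 23 UMIs, or 18.2 and 89.2 CPM, and 18 of the 23 lay in 1 nucleus. Without the nucleus with the most UMIs in each library, the alpha-like level was 11.0 and 20.0 CPM, against 12.0 and 26.4 CPM in acinar-like nuclei. Gamma-like nuclei had 0 and 2 UMIs. The delta-like level lay in part of the nuclei, since 13 of 26 and 36 of 59 had 0 UMIs and 1 nucleus of each library held 15 of 40 and 26 of 102 UMIs. Without these nuclei the delta-like level was 330 and 549 CPM. Alpha-like and gamma-like nuclei were thus high in GRIK1 and near the background in GRM5, delta-like nuclei were above the background in GRM5 and near it in GRIK1, and beta-like nuclei held both.

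A level was called different when it was past 2-fold in both libraries in the same direction, among genes with at least 20 UMIs over the sums compared. Against acinar-like nuclei, 3 of the 5 genes were called higher in alpha-like nuclei (GRIA3, GRIK1 and GRIK2), where 13.4% of all genes tested were called higher. The count was 4 of 5 in beta-like nuclei, with GRM5 added, where 14.1% of all genes were called higher. It was again 4 of 5 in delta-like nuclei, where 11.0% of all genes were. The 5 genes were chosen with earlier results of these data known, so these counts are descriptive only. In delta-like nuclei GRIK1 passed with log2 ratios of 2.01 (0.12 to 3.37) and 1.29 (0.22 to 2.18), far below the 8.79 and 7.80 of alpha-like nuclei. This call rests on 4 and 10 UMIs and was lost with median-of-ratios scaling, at 1.15 and 0.79, and with nuclei thinned to 500 UMIs, at 2.06 and 0.89, which leaves 3 of 5. The log2 ratios of GRIA3 over acinar-like nuclei were 8.75 and 8.12 in alpha-like, 7.58 and 6.68 in beta-like and 8.17 and 7.38 in delta-like nuclei. Those of GRM5 in beta-like nuclei were 7.96 and 5.38. In gamma-like nuclei, where 8.20% of all genes were called higher, GRIA3, GRIK1 and GRIK2 were called higher.

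Between the endocrine-like classes, 4 of the 5 genes had enough UMIs. GRIA3 and GRIK1 were called higher and GRM5 lower in alpha-like than in beta-like nuclei, where 12.3% of all genes were called in either direction. The GRIA3 log2 ratios were 1.17 (1.05 to 1.30) and 1.44 (1.29 to 1.59), and those of GRIK1 were 2.62 (2.48 to 2.76) and 2.52 (2.36 to 2.67). The GRM5 log2 ratios were -7.36 (-8.98 to -6.13) and -3.62 (-4.30 to -3.02). GRIK1 was called lower in delta-like than in beta-like nuclei, at -4.17 and -3.99, where 10.8% of all genes were called. Between alpha-like and delta-like nuclei, where 11.9% of all genes were called, GRIK1 was called higher and GRM5 lower in alpha-like nuclei. GRM5 in delta-like over beta-like nuclei was at -2.58 (-3.07 to -2.13) in WT and -0.65 (-0.98 to -0.34) in PIGinH11, so the call was not made there.

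**Figure D2:**
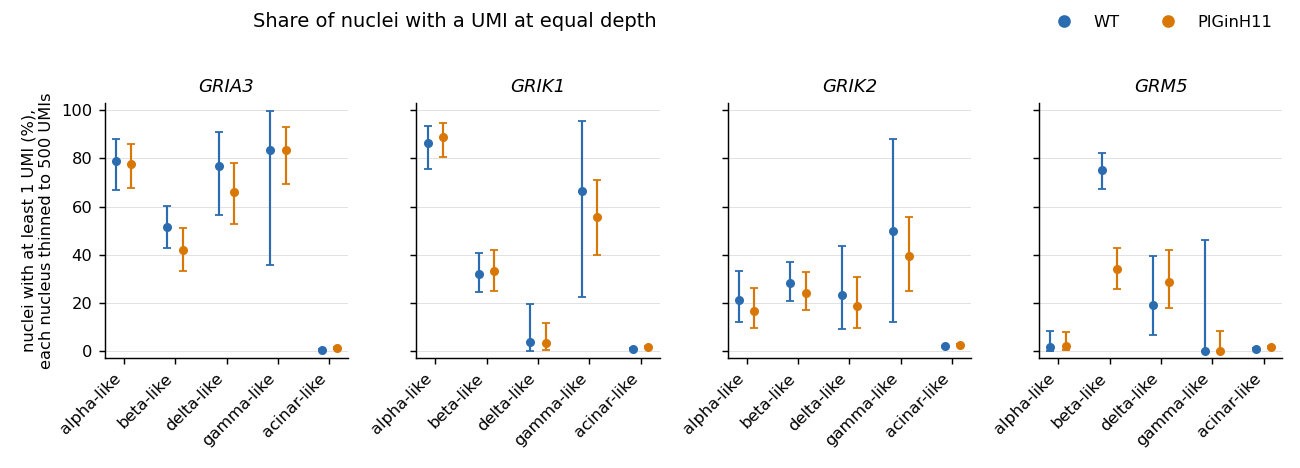
Share of nuclei with at least 1 UMI of GRIA3, GRIK1, GRIK2 or GRM5, in percent, after each nucleus was thinned to 500 UMIs, in 4 endocrine-like classes and acinar-like nuclei of the WT library (blue) and the PIGinH11 library (orange). Points are single libraries and bars are exact 95% binomial intervals. At equal depth, GRM5 was found in 75.4% of WT and 33.9% of PIGinH11 beta-like nuclei, and in 0.808% and 1.58% of acinar-like nuclei.

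Depth per nucleus differed between the libraries, so shares of nuclei were also taken with each nucleus thinned to 500 UMIs, at which no nucleus of these classes was left out. Then 86.4% and 88.9% of alpha-like nuclei had a GRIK1 UMI, as did 32.1% and 33.1% of beta-like and 3.85% and 3.39% of delta-like nuclei. GRIA3 was found in 78.8% and 77.8% of alpha-like, 51.5% and 41.9% of beta-like and 76.9% and 66.1% of delta-like nuclei. In acinar-like nuclei the thinned shares were 0.91% and 1.79% for GRIK1 and 0.557% and 1.17% for GRIA3. Without thinning, 98.5% and 97.8% of alpha-like nuclei had a GRIK1 UMI, as did 4.23% and 4.55% of acinar-like nuclei.

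Most alpha-like, beta-like and delta-like nuclei carried several of these receptor genes at once. GRIA3 and GRIK1 were both read in 64 of 66 and 84 of 90 alpha-like nuclei. GRIA3 and GRM5 were both read in 127 of 134 beta-like nuclei of the WT library and in 76 of 124 of the PIGinH11 library. In beta-like nuclei, 4 of the genes were read together in 80 of 134 and 43 of 124 nuclei, and 0 nuclei of any endocrine-like class had all 5. Of delta-like nuclei, 4 of 26 and 12 of 59 had only 1 of the genes. Of the unnamed endocrine-like nuclei of the PIGinH11 library, 105 of 252 had none and 69 had 1. These counts rise with depth, and the median depth of beta-like nuclei was 4229 UMIs in WT and 2424 in PIGinH11. Of acinar-like nuclei, 83.1% and 84.5% had none of the 5 genes.

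The comparison of PIGinH11 with WT sets 1 pig and library against 1 other on the same diet. The knocked-in genes cannot be told apart from the single pig or the library in it. Of the 4 genes with enough UMIs, 1 was past 2-fold in beta-like nuclei. This was GRM5, at a log2 ratio of -1.44 (-1.60 to -1.29), or 2.72 times lower in the PIGinH11 library, where 12.4% of all genes tested were past 2-fold in either direction. GRIA3 was at -0.17 (-0.32 to -0.02), GRIK1 at 0.28 (0.09 to 0.46) and GRIK2 at -0.23 (-0.45 to -0.004). When nuclei were limited to 1300 UMIs, which left 7 and 43 beta-like nuclei, GRIK1 was also past 2-fold, at a log2 ratio of 2.48. The median of the 4 genes was -0.20, and that of all 6968 genes tested was 0.05. In single beta-like nuclei the median GRM5 level was 25.7 UMIs per 10000 in WT and 7.0 in PIGinH11, and 3 of 134 against 40 of 124 nuclei had 0 UMIs.

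**Figure D3:**
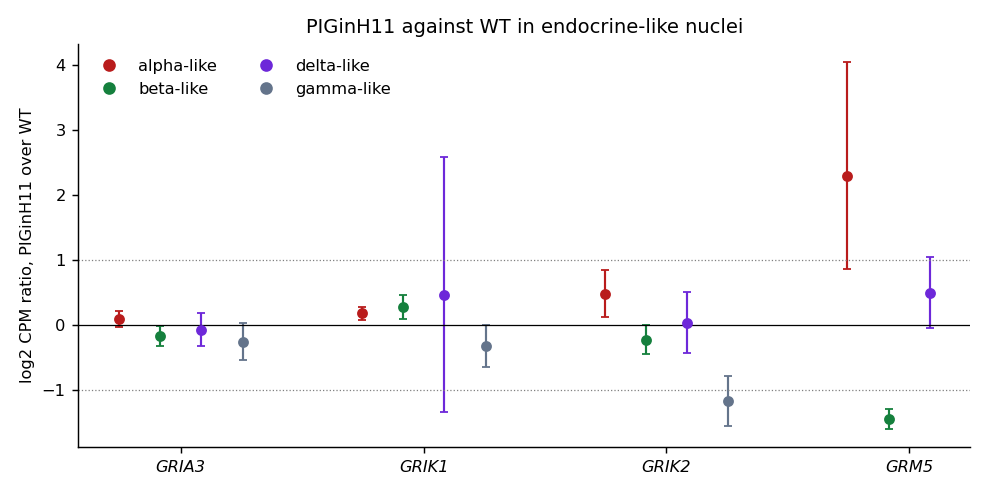
Log2 ratio of CPM in the PIGinH11 library over the WT library for GRIA3, GRIK1, GRIK2 and GRM5 in 4 endocrine-like classes. Points compare 1 library with 1 library, bars are exact 95% conditional binomial intervals that cover counting error only, and dotted lines mark 2-fold. GRM5 in beta-like nuclei lies at -1.44, and GRM5 in gamma-like nuclei is not drawn because the WT library had 0 UMIs there.

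Delta-like nuclei, the other class with GRM5, did not have less of it in the PIGinH11 library. Here GRM5 was at 0.49 (-0.05 to 1.05), GRIA3 at -0.07 (-0.33 to 0.19) and GRIK2 at 0.04 (-0.43 to 0.51). Of the 3 genes with enough UMIs, 0 were past 2-fold, where 18.9% of all genes were in either direction. Whether the beta-like and delta-like ratios of GRM5 differ between pigs could not be tested with 1 pig per group. In acinar-like nuclei GRM5 was at 12.0 and 26.4 CPM. Other measures of beta-like nuclei differed between the libraries too. INS was at 8335 and 5144 CPM, and the summed level of 14 acinar markers was 7063 and 2604 CPM, and the part of these in the GRM5 ratio was not tested.

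**Figure D4:**
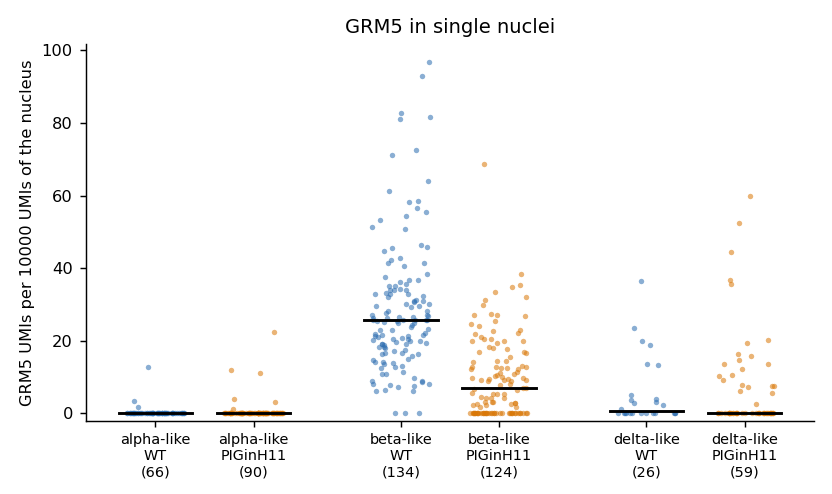
GRM5 UMIs per 10000 UMIs in each alpha-like, beta-like and delta-like nucleus of the WT library (blue) and the PIGinH11 library (orange), with the number of nuclei in brackets. Points are nuclei, spread sideways at random, and black bars are medians. The median of beta-like nuclei was 25.7 in WT and 7.0 in PIGinH11, and most alpha-like nuclei are at 0.

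The 40 beta-like nuclei of the PIGinH11 library without a GRM5 UMI were shallower, with a median of 1534 UMIs against 2903 in the 84 nuclei with one. INS stood at 6218 CPM in those without and 4791 CPM in those with a GRM5 UMI. GRIA3 was at 1791 and 1337 CPM and GRIK1 at 1565 and 935 CPM. In these sums the nuclei without a GRM5 UMI were not lower in INS, GRIA3 or GRIK1. Detection of GRM5 itself depends on depth, no interval was taken, and the cause of these differences was not tested.

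In alpha-like nuclei 1 of the 4 genes with enough UMIs was past 2-fold, where 13.1% of all genes tested were past 2-fold in either direction. This was GRM5, at 2.29 (0.86 to 4.04) from 5 and 23 UMIs, and without the nucleus with the most UMIs in each library it was 0.86. When endocrine-like nuclei were assigned by their hormone, it was -1.16. GRIA3 was at 0.09 (-0.04 to 0.22), GRIK1 at 0.18 (0.07 to 0.28) and GRIK2 at 0.48 (0.12 to 0.84). For GRIA3 and for GRIK1, the level of the PIGinH11 library was thus within 1.13 times that of the WT library. The median of the 4 genes was 0.33, and that of all 4753 genes tested was 0.01.

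In gamma-like nuclei GRIA3 was at -0.26 (-0.55 to 0.02), GRIK1 at -0.33 (-0.65 to 0.00) and GRIK2 at -1.17 (-1.55 to -0.78). Of all genes tested there, 23.6% were past 2-fold in either direction. The GRIK2 ratio rests on the WT nucleus with 76 of 113 UMIs. Of the 6 WT nuclei, 1 held 91 of 158 GRIA3 UMIs and 1 held 51 of 125 GRIK1 UMIs. Without the nucleus with the most UMIs in each library, GRIA3 was at 2758 CPM in WT and 3403 CPM in PIGinH11, the opposite direction. GRIK1 was then at 2813 and 2433 CPM. In the unnamed endocrine-like nuclei the log2 ratios were -1.60 for GRIA3, -1.11 for GRIK1, -0.79 for GRIK2 and -2.34 for GRM5. Of these nuclei, 38 of 47 and 235 of 252 matched acinar markers best, and the part of this in the ratios was not tested.

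The 5 genes held most receptor UMIs of endocrine-like nuclei, in shares that are not corrected for gene span. They were chosen with earlier results of these data known, so these shares describe the genes and are no test. Of 26 genes for ionotropic and metabotropic glutamate receptors, the 5 genes held 93.3% and 91.9% of the receptor UMIs in alpha-like nuclei, 82.9% and 74.2% in beta-like nuclei and 76.4% and 78.4% in delta-like nuclei. In acinar-like nuclei they held 13.4% and 17.1%. Most of the rest in beta-like nuclei was GRIK4, a kainate subunit that forms channels only together with subunits such as GRIK1 and GRIK2, at 964 and 1032 CPM against 106 and 168 CPM in acinar-like nuclei. Per 100 kb of span, GRIK4 stood at 212 and 226 CPM in beta-like nuclei and GRIK1 at 215 and 260 CPM. All 5 kainate receptor subunits were called higher than in acinar-like nuclei in alpha-like, beta-like and delta-like nuclei, where 13.4%, 14.1% and 11.0% of all genes were called higher. GRIK3 and GRIK5 had fewer than 20 UMIs in alpha-like nuclei of each library, as did GRIK3 in beta-like nuclei of the PIGinH11 library. In delta-like nuclei GRIK3 rests on 1 and 8 UMIs, GRIK5 on 2 and 5 and GRIK1 on the 4 and 10 UMIs whose call was lost above. In beta-like nuclei, GRIK5, another partner subunit, was at 31.6 and 61.2 CPM against 1.21 and 3.08 CPM in acinar-like nuclei. Of the 7 NMDA receptor subunits, 4 had enough UMIs with those of acinar-like nuclei added, and 0 were called in alpha-like, beta-like or delta-like nuclei. None of the 7 had 20 UMIs in any of these 3 classes alone, so low levels there cannot be told from absence.

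**Figure D5:**
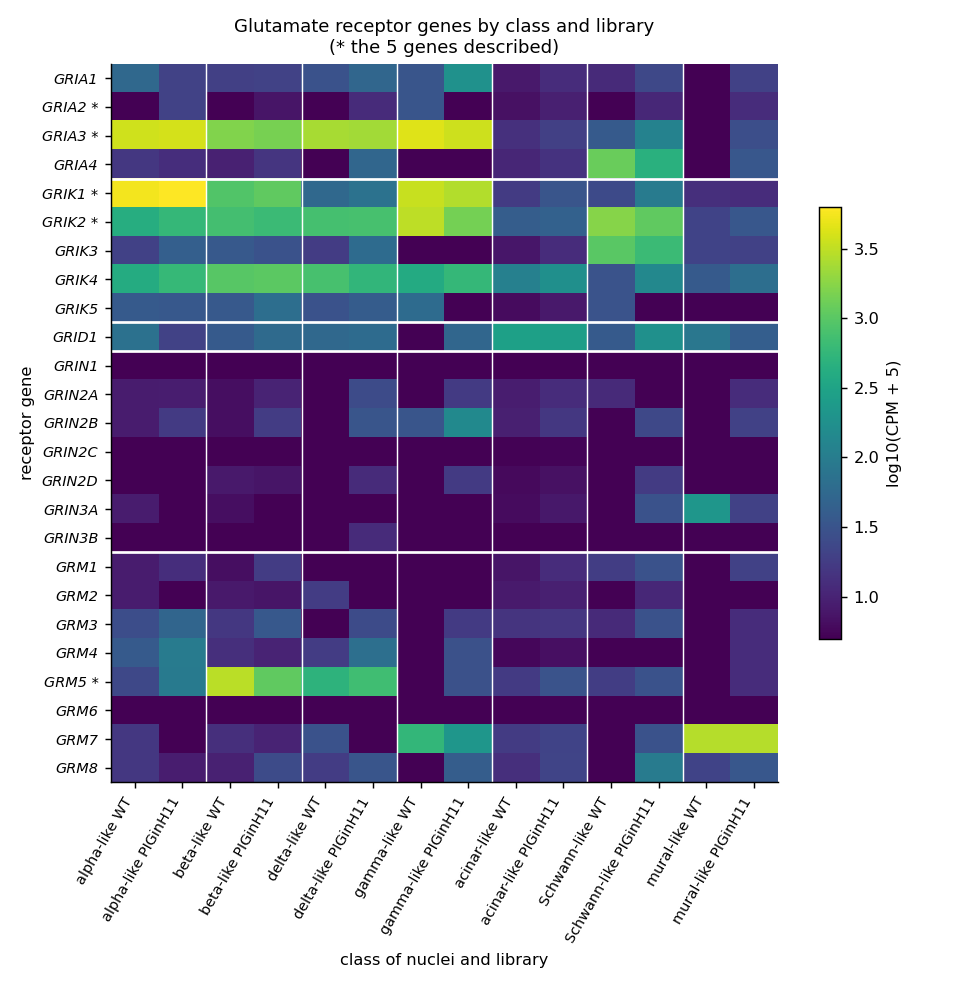
Levels of 25 glutamate receptor genes, as log10 of CPM plus 5, in 7 classes of nuclei of the WT and PIGinH11 libraries, with lighter colours for higher levels and white lines between AMPA, kainate, delta, NMDA and metabotropic genes. An asterisk marks the 5 genes described. Colours are not corrected for gene span and compare classes within a row. The GRIA3 row is bright in all 4 endocrine-like classes and the GRM5 row in beta-like and delta-like nuclei, and all 7 NMDA rows are dark in alpha-like, beta-like and delta-like nuclei.

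Of the 70 other genes on a list of glutamate receptors, their partners, transporters and enzymes, 56 had enough UMIs in alpha-like against acinar-like nuclei. Of these, 13 were called higher and 6 lower, where 13.4% of all genes were called higher and 9.22% lower. In beta-like nuclei 13 of 56 were called higher and 8 lower, where 14.1% of all genes were called higher and 10.6% lower. In delta-like nuclei 11 of 55 were called higher and 9 lower, where 11.0% of all genes were called higher and 5.33% lower. PLCB4, a phospholipase C beta downstream of Gq, was at 1337 and 1598 CPM in alpha-like, 1468 and 1134 CPM in beta-like and 2277 and 2131 CPM in delta-like nuclei, against 14.9 and 32.1 CPM in acinar-like nuclei. DLG4, the postsynaptic scaffold PSD-95, was at 109 and 210 CPM in alpha-like and 63.2 and 143 CPM in beta-like nuclei, against 0.825 and 2.24 CPM in acinar-like nuclei. ADARB2, listed with the adenosine deaminases acting on RNA, was at 63.2 and 115 CPM in beta-like nuclei against 14.9 and 14.1 CPM in acinar-like nuclei. In delta-like nuclei ADARB2 was at 175 and 186 CPM, from 14 and 27 UMIs. RNA editing itself was not measured. GLUD1, which converts glutamate to alpha-ketoglutarate, was at 153 and 101 CPM in alpha-like nuclei against 11.2 and 9.29 CPM in acinar-like nuclei. SLC17A6, SLC17A7 and SLC17A8, which load glutamate into vesicles and were named after their values were seen, had at most 2 UMIs in alpha-like, beta-like or delta-like nuclei of either library.

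Between the libraries, 2 of 25 other list genes with enough UMIs were higher in beta-like nuclei of the PIGinH11 library (CNIH3 and DLG4) and 3 were lower (PLCB1, HOMER1 and HOMER2), where 12.4% of all genes tested were past 2-fold in either direction. PLCB1, which acts downstream of Gq, was at 1457 CPM in WT and 515 CPM in PIGinH11, a log2 ratio of -1.50 (-1.73 to -1.28). HOMER1 and HOMER2 are scaffolds that bind group I metabotropic receptors such as GRM5. They had 23 and 21 UMIs in WT against 6 and 5 in PIGinH11, and their values were seen before they were named. These counts are small, and the counting intervals of both ratios include no change. PLCB1 was also high in acinar-like nuclei, at 2872 and 2500 CPM, and HOMER1 stood there at 81.0 and 80.9 CPM and HOMER2 at 83.4 and 110 CPM. The acinar marker sum given above was lower in beta-like nuclei of the PIGinH11 library, but it includes the enzyme genes CPA1, CPB1 and PNLIP. Library-wide, the acinar enzyme gene PRSS2, which is not in this sum, held 3.99% of UMIs for WT against 0.527% for PIGinH11. The sum alone therefore cannot tell less acinar RNA from lower enzyme levels. The part of acinar RNA in the PLCB1, HOMER1 and HOMER2 ratios was not tested. In alpha-like nuclei, GRIP1, a scaffold of AMPA receptors, was at 816 and 376 CPM, a log2 ratio of -1.12 (-1.48 to -0.77), and in acinar-like nuclei at 172 and 396 CPM.

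The genes whose levels over 12 classes in 2 libraries (24 profiles) were most like those of each receptor were found among 12002 genes with symbols, with Pearson's r of log2 CPM. For GRIA3 these were GNAO1 (r = 0.97), LHFPL4 (r = 0.97) and CACNA1B (r = 0.97). For GRIK1 they were FAM184B (r = 0.94), ANXA10 (r = 0.92) and GALP (r = 0.92). For GRIK2 they were ADGRB3 (r = 0.92), SCN9A (r = 0.90) and CHST9 (r = 0.87), and for GRM5 they were CHGA (r = 0.93), ASB9 (r = 0.90) and NYAP2 (r = 0.89). For GRIA2, with few UMIs in most classes, they were CHRDL1 (r = 0.78), BOC (r = 0.77) and AFF2 (r = 0.76). Among the receptors themselves, GRIA3 and GRIK1 were most alike (r = 0.87), and GRIK1 and GRM5 reached r = 0.34. The profiles are not independent, since classes of 1 library share its depth and background RNA and both libraries share the class structure.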

How the data were processed

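The authors aligned reads to Sscrofa11.1 and deposited raw UMI counts per gene and barcode from Cell Ranger (v3.1.0 in the methods, v5.0.0 in the file headers), with barcodes called by EmptyDrops. Nuclei were kept within 270 to 3700 detected genes, under 13000 UMIs and under 10% of UMIs from mitochondrial genes. The methods print a UMI limit of 1300, which was an alternative. The top 0.8% of Scrublet scores per 1000 barcodes were removed (scanpy v1.11.5). Clustering used 2000 variable genes without 75 glutamate genes, 30 components, Harmony and Louvain (igraph v0.11.9, resolution 1). UMIs were summed per class and library. A sum of 0 was set to 3 UMIs and called only in the direction of that bound. Likeness used log2(CPM + 5) and genes with at least 100 UMIs. Named list genes had at least 20 UMIs in each library in the class and were at least 4-fold above acinar-like nuclei in both libraries or past 2-fold between the libraries. Class sums were also simulated as Poisson counts, with 200 genes changed 2-fold or 4-fold. In alpha-like nuclei (16820 genes) the direction was recovered for 100%, as in beta-like and delta-like nuclei. The intervals held the set change for 94.5%, 98.5% and 98% of the changed genes in these 3 classes. Changed genes were drawn above the UMI minimum used for calls, and UMIs did not clump in single nuclei. The simulation therefore checks the calculation only. The members and lists were chosen with earlier results of these data known. The alternatives are given in the closing section. Some genes are not reported here by name, and the counts over lists include them.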

Additional observations from a re-analysis of the deposited data

Results flagged for a closer look

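The PIGinH11 over WT ratio of GRIK2 lay on opposite sides of 0 in alpha-like and beta-like nuclei, at log2 0.48 and -0.23, a difference of 0.70. This difference was not tested, since each group has 1 pig. GRIK2 had 114 and 149 UMIs in alpha-like and 472 and 250 UMIs in beta-like nuclei (WT and PIGinH11), and with nuclei thinned to 500 UMIs the alpha-like value was -0.36.

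The ratio of GRM5 was 2.29 in alpha-like and -1.44 in beta-like nuclei, a difference of 3.73 that was not tested either. The alpha-like value compares 5 with 23 UMIs, 18 of them in 1 nucleus, and was 0.86 without the nucleus with the most UMIs in each library.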

How the results depend on the processing

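No paired analysis was possible because each group has 1 library. Doublet removal was left out or doubled, the UMI limit set to 1300, the gene minimum to 500 and the Louvain resolution to 2. Harmony was left out, and the 75 glutamate genes were kept among those open to clustering. Levels were scaled by the median of ratios, divided by totals lacking enzyme, mitochondrial and ribosomal protein genes, averaged per nucleus, thinned to 500 UMIs or lowered by the free RNA (not against acinar-like nuclei), and endocrine-like nuclei were assigned by hormone. Of 823 values under these settings and 1 added below, 718 stayed within the interval of the value reported. GRM5 in beta-like nuclei stayed between -1.70 and -1.41. With the UMI limit of 1300, 0 alpha-like and 0 delta-like nuclei were named, so 4 of the 11 calls over acinar-like nuclei and 0 of the 6 calls between endocrine-like classes could be made, and GRIK1 in beta-like nuclei was 2.48 for PIGinH11 over WT, from 7 and 43 nuclei. GRIK1 in delta-like over acinar-like nuclei was no longer past 2-fold in both libraries with median-of-ratios scaling (1.15 and 0.79) or thinning (2.06 and 0.89), and GRM5 in alpha-like over acinar-like nuclei was past 2-fold in both (4.04 and 1.75) with assignment by hormone. The count of PIGinH11 over WT ratios past 2-fold in alpha-like, beta-like and delta-like nuclei, 2 as reported, was 1 with thinning and 1 without the nucleus with the most UMIs of the gene, a setting chosen after seeing the data. GRIK1 in alpha-like nuclei was -0.013 and GRM5 -1.16 with assignment by hormone, GRIK2 in alpha-like nuclei was -0.36 with thinning, and GRM5 in alpha-like over acinar-like nuclei of the PIGinH11 library was -0.37 without its top nucleus; the cause was not tested except for the last, where 18 of 23 UMIs left with that nucleus. Median-of-ratios scaling subtracted 0.22 to 0.86 from alpha-like, beta-like and delta-like over acinar-like ratios. From the PIGinH11 over WT ratios of these classes it subtracted 0.03, 0.10 and -0.13, in this order. With a minimum of 5 UMIs instead of 20, the share of all genes past 2-fold between PIGinH11 and WT was 26.4%, 25.6% and 32.0% in alpha-like, beta-like and delta-like nuclei, and with 100 UMIs it was 4.35%, 5.46% and 11.7%. When intervals also had to leave out no change, a rule chosen after seeing the data, 9.93% of all genes were called in delta-like over acinar-like nuclei, in place of 16.4%, and the counts for the 5 genes stayed at 11, 6 and 2.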
